A study of Mus musculus with 40 samples.

Results

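In mouse liver, 1462 of the 35138 NCoR peaks (4.16%) had a SMRT peak but no HDAC3 peak beside them. They were chosen by centre distance: a SMRT peak centre lay within 200 bp of the NCoR centre and no HDAC3 centre did. Of the other NCoR peaks, 8739 had both SMRT and HDAC3 within that distance (all-three sites), 5212 had HDAC3 without SMRT, and 19725 had neither (NCoR-only sites). The lists held 10654 SMRT peaks and 14462 HDAC3 peaks. The 40 libraries of the study, in 18 groups, were made to ask how the repressor BCL6 and its cofactors act on the fed and fasted liver. NCoR, SMRT and HDAC3 were mapped by chromatin immunoprecipitation and sequencing (ChIP-seq) in livers of fed C57BL/6 mice that carried Bcl6 fl/fl, a floxed allele left intact because these animals had no Albumin-cre. Whole liver was used, so hepatocytes and the other cells of the liver contribute together. Each cofactor was mapped in 3 such animals, and the peaks of the 3 were deposited as a single list of positions. No list gives a height, a depth or a value per animal. Each site is therefore present or absent in a list that passed the threshold of the authors, a site without an HDAC3 peak may still hold HDAC3 below that threshold, and the tests below measure counting error over sites and not the spread between animals.

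NCoR and SMRT are large related scaffolds that transcription factors bring to DNA, among them nuclear receptors without an activating ligand, REV-ERB and BCL6. HDAC3 is a histone deacetylase that is switched on by binding to these scaffolds, so NCoR, SMRT and HDAC3 are usually described as parts of a shared repressor complex. In hepatocytes, such complexes are known for holding down genes of lipid, bile acid and glucose metabolism. HNF6 (ONECUT1), CUX2, FOXA, C/EBP and HNF4A are among the factors that mark liver enhancers.

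Several of the sites are shown first, because their letters carry the matches counted below. Sequences are from the GRCm38 reference (mm10), forward strand, read over the deposited interval of 229 bases, with the match of the named motif in capitals. For 5 of the 6 motifs found in the most sites, the sequence is that of the site whose match lay closest to the NCoR centre, among sites whose nearest gene was in one of the gene lists described later. The HNF6/CUX2 example lay 25.01 kb upstream of Ghr, the growth hormone receptor, at chr15:3608129-3608357, between genes. The forkhead (FOX) example lay at chr8:76514213-76514441, between genes, with Nr3c2, the mineralocorticoid receptor, as the nearest gene 385 kb away. The HNF4 half-site example lay at chr7:69556769-69556997, 804 kb from Nr2f2 (COUP-TFII), also between genes, and held the half-site in 2 copies. The C/EBP example lay 24.8 kb upstream of Cyp3a11, a drug-metabolizing cytochrome P450, at chr5:145904620-145904848. The GATA example lay 65.5 kb upstream of the nearest start of Foxo3, a forkhead factor restrained by insulin. It was at chr10:42342169-42342397, in an intron of another gene.
Ghr site, HNF6/CUX2: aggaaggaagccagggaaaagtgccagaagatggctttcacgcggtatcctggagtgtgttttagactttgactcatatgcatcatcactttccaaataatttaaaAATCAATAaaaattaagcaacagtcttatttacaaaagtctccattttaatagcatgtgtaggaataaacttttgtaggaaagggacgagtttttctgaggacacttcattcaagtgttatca
Nr3c2 site, FOX: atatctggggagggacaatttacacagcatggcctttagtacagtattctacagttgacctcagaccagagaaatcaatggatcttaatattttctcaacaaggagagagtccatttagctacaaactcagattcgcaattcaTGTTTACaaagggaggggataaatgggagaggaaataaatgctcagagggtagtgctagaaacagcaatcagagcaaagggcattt
Nr2f2 site, HNF4 half-site: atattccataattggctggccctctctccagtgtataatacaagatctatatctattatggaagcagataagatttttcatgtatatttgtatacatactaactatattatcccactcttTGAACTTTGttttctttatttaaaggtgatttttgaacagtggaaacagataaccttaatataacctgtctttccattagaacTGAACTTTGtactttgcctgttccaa
Cyp3a11 site, C/EBP: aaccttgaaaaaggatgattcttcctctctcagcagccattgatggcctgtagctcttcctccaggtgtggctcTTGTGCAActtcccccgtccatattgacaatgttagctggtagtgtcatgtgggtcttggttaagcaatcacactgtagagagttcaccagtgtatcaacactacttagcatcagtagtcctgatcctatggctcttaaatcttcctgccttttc
Foxo3 site, GATA: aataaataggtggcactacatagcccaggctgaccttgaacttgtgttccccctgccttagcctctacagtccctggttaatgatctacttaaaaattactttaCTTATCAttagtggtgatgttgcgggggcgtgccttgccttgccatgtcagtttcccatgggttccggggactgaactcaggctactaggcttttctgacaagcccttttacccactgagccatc

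The second set comes from genes that the study named as fasting-responsive, with every motif match within 100 bp of the NCoR centre in capitals. The site of Acot4, a peroxisomal acyl-CoA thioesterase, lay 3.996 kb upstream of the gene at chr12:84034269-84034497 and held a PAR bZIP match. The site of Idh2, the mitochondrial NADP-dependent isocitrate dehydrogenase, lay 19.2 kb upstream at chr7:80134524-80134752 and held a glucocorticoid response element (GRE) match. The site nearest to Bcl6, the repressor under study, lay 89.4 kb upstream at chr16:24078114-24078342, in an intron of another gene. It held 2 HNF6/CUX2 matches side by side. The sites of Ehhadh, an enzyme of peroxisomal β-oxidation, and Hadh, an enzyme of mitochondrial β-oxidation, held no match of any of the 23 motifs searched.
Acot4 site, PAR bZIP: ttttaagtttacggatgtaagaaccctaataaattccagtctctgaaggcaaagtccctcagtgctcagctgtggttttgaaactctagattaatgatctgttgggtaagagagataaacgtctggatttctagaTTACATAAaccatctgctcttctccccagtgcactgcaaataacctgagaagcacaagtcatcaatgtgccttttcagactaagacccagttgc
Idh2 site, GRE: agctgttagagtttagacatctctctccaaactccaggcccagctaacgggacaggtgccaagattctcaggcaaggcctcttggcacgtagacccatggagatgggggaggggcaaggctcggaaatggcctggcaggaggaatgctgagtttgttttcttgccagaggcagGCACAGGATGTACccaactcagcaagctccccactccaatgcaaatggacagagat
Bcl6 site, HNF6/CUX2: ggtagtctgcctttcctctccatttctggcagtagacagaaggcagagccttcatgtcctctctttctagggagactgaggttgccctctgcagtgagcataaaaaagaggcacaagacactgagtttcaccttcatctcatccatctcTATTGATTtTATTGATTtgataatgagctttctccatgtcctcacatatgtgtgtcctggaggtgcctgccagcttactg

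NCoR and SMRT sat close together at these sites. The median distance between their centres was 31 bp, with quartiles of 14 and 54 bp, and 1379 of 1462 sites (94.3%) had them within 100 bp. At all-three sites the median was 23 bp, with quartiles of 10 and 41 bp, and 97.8% were within 100 bp. Both are descriptions, since these distances chose the sites. All 1462 NCoR intervals overlapped a SMRT interval, which peaks of these widths with centres within 200 bp must do. Each site had a SMRT peak of its own, and none shared its SMRT peak with an all-three site. Read from the SMRT list instead, 1471 of 10654 SMRT peaks (13.8%) had NCoR but no HDAC3 within 200 bp.

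The nearest HDAC3 peak was mostly far away rather than just beyond the limit. These distances are descriptions too, since they chose the sites. The nearest HDAC3 centre was between 200 and 400 bp away at 16 sites, 11 of them up to 300 bp, and between 400 and 1000 bp at 73 sites (4.99%). It was between 1 and 10 kb away at 479 sites (32.8%), between 10 and 100 kb at 654 (44.7%) and beyond 100 kb at 240 (16.4%). The median distance was 17.2 kb, against 22.9 kb at NCoR-only sites. At 7 sites the SMRT peak itself had an HDAC3 centre within 200 bp, and 2 NCoR intervals overlapped an HDAC3 interval. Few sites lay at the limits. The site nearest to Id1 had its SMRT centre 196 bp away and those nearest to Siah1a and Gm5136 had it 189 bp away, whereas peaks nearest to Cebpb, Fgfr4 and BC051665 missed the limit at 201, 209 and 212 bp. HDAC3 was 213 bp away at the site nearest to Sept9, 217 bp at that of Siah1a and 226 bp at that of Btg1. It lay just within the limit, at 193 bp near D630039A03Rik and 196 bp near both Coq8a and Aspg, at peaks counted as all-three sites.

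**Figure D1:**
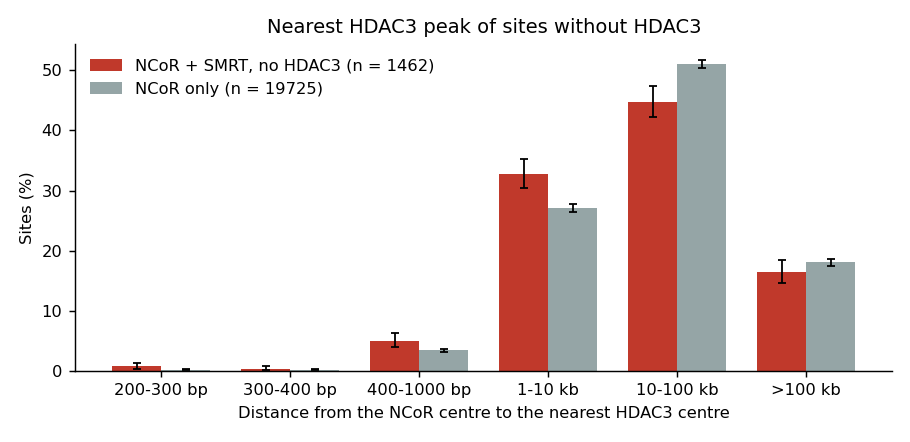
Share of sites (vertical axis, %) by distance from the NCoR centre to the nearest HDAC3 centre, for NCoR and SMRT sites without HDAC3 (red) and NCoR-only sites (grey). Bars show percentages with 95% exact binomial intervals; 44.7% of the red sites and 51.1% of the grey sites fall between 10 and 100 kb.

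Of the 23 motifs searched, HNF6/CUX2 was found at the most of these sites, and the RORE was scarcer than in each of the other 3 classes. Matches were counted on both strands in the 200 bp around the NCoR centre, for 23 motifs against each of the 3 other classes, with two-sided Fisher's exact tests adjusted over the 69 tests. The HNF6/CUX2 motif was searched as TATTGATT with C also accepted at the fourth and the eighth letters. The RORE is the element of the clock repressor REV-ERB and the activator ROR, an A/T-rich stretch before a single receptor half-site. The matches are letters in a window and not shown to be bound.

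HNF6/CUX2 matches lay at 182 of 1462 sites, or 12.4% (95% exact binomial interval 10.8 to 14.3%). The share was 8.23% at all-three sites, 4.59% at NCoR and HDAC3 sites without SMRT, 4.33% at NCoR-only sites and 5.67% of all NCoR peaks. The odds ratio was 1.59 against all-three sites (adjusted p = 5.16e-06, Fisher's exact test), 2.96 against NCoR and HDAC3 sites (adjusted p = 1.38e-22) and 3.14 against NCoR-only sites (adjusted p = 5.85e-31). Base composition moved with the class. Median GC of the window was 44.5% at these sites (quartiles 39.5 and 50%), 47.5% at all-three sites, 49% at NCoR and HDAC3 sites and 48.5% at NCoR-only sites. When windows were compared within 10 strata of GC, the odds ratio against all-three sites fell to 1.23 and no longer passed (adjusted p = 0.133, Mantel-Haenszel test). Against NCoR and HDAC3 sites it was 1.98 (adjusted p = 8.47e-09) and against NCoR-only sites it was 2.16 (adjusted p = 1.97e-16), and both still passed. The difference from the sites that lack SMRT was thus present within GC strata, whereas the difference from all-three sites was not detectable there.

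The ranges of GC show the same by counts. In windows up to 42% GC, matches lay at 118 of 566 sites (20.8%, 95% interval 17.6 to 24.4%), against 17.1% of all-three sites, 10.05% of NCoR and HDAC3 sites and 10.1% of NCoR-only sites. Between 42 and 50% GC they lay at 58 of 548 sites (10.6%), against 7.73, 5.30 and 4.81%. Above 50% GC they lay at 6 of 348 sites (1.72%), against 2.73, 1.81 and 1.30%. There the intervals of all other classes overlapped that of these sites. In the lower ranges only the interval of all-three sites did. The sites with a match were mostly distal: 10 were at promoters, 102 in introns and 66 between genes, with 178 different nearest genes among 182 sites. Their nearest HDAC3 centre was a median of 29.9 kb away, against 16.0 kb at the sites without a match. That difference was not tested and was not compared within ranges of GC. Matches lay at a median distance of 31 bp from the centre in both classes with SMRT, and 70.7% at sites without HDAC3 and 70.5% at all-three sites were within 50 bp. On the forward strand, 60.6% lay to the right of the centre at sites without HDAC3 and 48.6% at all-three sites. This was not tested.

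RORE matches went the other way. They lay at 32 sites, or 2.19% (95% interval 1.502 to 3.08%), against 4.91% of all-three sites, 6.62% of NCoR and HDAC3 sites, 4.57% of NCoR-only sites and 4.86% of all NCoR peaks. The odds ratios were 0.43 (adjusted p = 7.82e-06), 0.32 (adjusted p = 3.32e-11) and 0.47 (adjusted p = 3.91e-05, Fisher's exact test). Within GC strata they were 0.42, 0.28 and 0.40, and all 3 still passed (adjusted p = 2.62e-05, 7.28e-11 and 3.75e-06). Fgg, a fibrinogen chain, and Onecut2, a relative of HNF6, were among the listed genes that had a site with a RORE match.

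**Figure D2:**
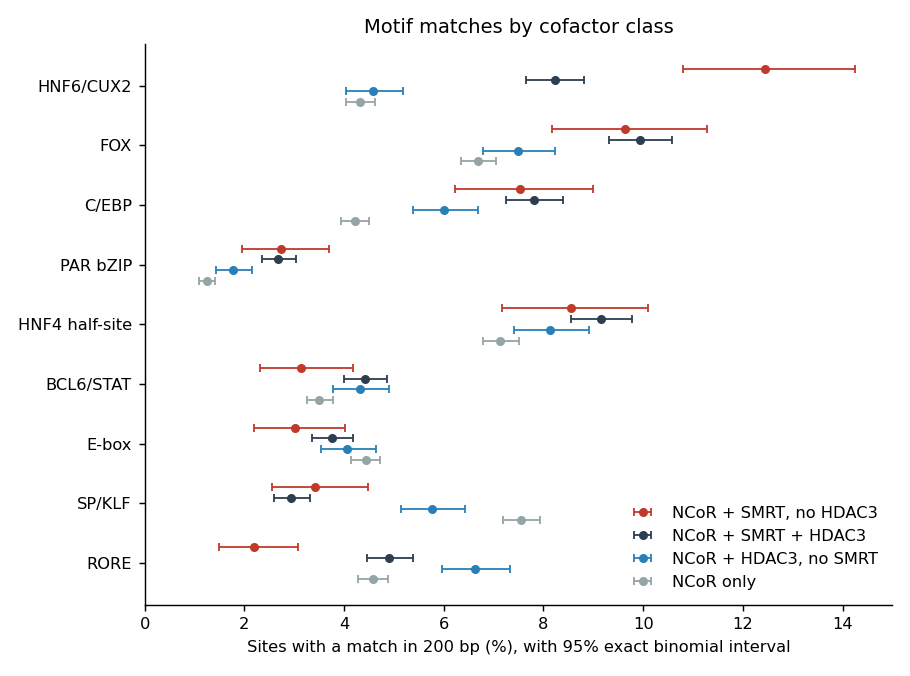
Share of sites with at least 1 match in the 200 bp around the NCoR centre (horizontal axis, %), for 9 motifs and 4 cofactor classes. Points are percentages and bars 95% exact binomial intervals; HNF6/CUX2 is at 12.4% in sites with SMRT but no HDAC3 and RORE at 2.19%, above and below the other 3 classes respectively.

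The half-site shared by many nuclear receptors, AGGTCA, was added after the data were seen. It lay at 442 sites (30.2%, 95% interval 27.9 to 32.7%), against 39.6% of all-three sites, 38.7% of NCoR and HDAC3 sites, 34.4% of NCoR-only sites and 36.2% of all NCoR peaks. The odds ratios were 0.66 (adjusted p = 1.53e-11), 0.69 (adjusted p = 3.80e-09) and 0.82 (adjusted p = 0.00101, Fisher's exact test). Within GC strata they were 0.71, 0.71 and 0.82 and still passed. The element of the bile acid receptor FXR (IR1) lay at 0 of 1462 sites, which allows a share of up to 0.205% by a floor of 3 counts (0.252% by the exact 95% interval), and at 32 of 8739 all-three sites (0.37%). That difference passed (adjusted p = 0.0431, Fisher's exact test) but rested on few windows. It ended within GC strata (adjusted p = 0.133), outside promoters (adjusted p = 0.0902) and under 5 further alternatives, with adjusted p up to 0.334.

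The BCL6/STAT motif, DR1 and the HNF4 half-site did not pass against all-three sites. The BCL6/STAT motif, TTCTNAGAA with C also accepted at the fourth letter and G at the sixth, lay at 46 sites (3.15%), against 4.42% of all-three sites (odds ratio 0.70, adjusted p = 0.0907). DR1, the element of PPAR with RXR and of HNF4, lay at 18 sites (1.23%) against 1.62% (odds ratio 0.75, adjusted p = 0.584). The HNF4 half-site, CAAAGGTCA with T also accepted at the sixth letter and C at the seventh, lay at 125 sites (8.55%) against 9.15% (odds ratio 0.93, adjusted p = 0.718). A p above the threshold does not show that the shares are alike.

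FOX, C/EBP and PAR bZIP matches were more frequent than at NCoR-only sites, and none of them passed against all-three sites. FOX (TGTTTAC) matches lay at 141 sites (9.64%) and 9.93% of all-three sites (adjusted p = 0.864), against 7.48% of NCoR and HDAC3 sites (odds ratio 1.32, adjusted p = 0.0410) and 6.69% of NCoR-only sites (adjusted p = 0.000252, odds ratio 1.49). Both FOX differences ended within GC strata (adjusted p = 0.468 and 0.105). C/EBP matches lay at 110 sites (7.52%) and 7.80% of all-three sites (adjusted p = 0.864), against 4.22% of NCoR-only sites (adjusted p = 7.27e-07, odds ratio 1.85), and that difference held within GC strata (odds ratio 1.49, adjusted p = 0.00196). PAR bZIP matches (TTATGTAA), the element of the clock-output factors DBP, TEF and HLF, lay at 40 sites (2.74%) and 1.25% of NCoR-only sites (adjusted p = 0.000138, odds ratio 2.23), but the difference ended within GC strata (adjusted p = 0.105).

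SP/KLF and CRE matches were scarcer than in both classes without SMRT, and ETS/ELK and E-box matches than at NCoR-only sites alone. SP/KLF (GGGCGGG) matches lay at 50 sites (3.42%), against 5.76% of NCoR and HDAC3 sites (odds ratio 0.58, adjusted p = 0.00158) and 7.55% of NCoR-only sites (adjusted p = 2.51e-09, odds ratio 0.43). Within GC strata neither passed and the first turned round, to an odds ratio of 1.15. ETS/ELK (4 sites), CRE (2 sites) and E-box (44 sites) gave adjusted p = 0.0124, 0.0410 and 0.0410 against NCoR-only sites and 0.234, 0.0410 and 0.193 against NCoR and HDAC3 sites (Fisher's exact test). None of these calls held within GC strata. Outside promoters, only that of SP/KLF against NCoR-only sites still passed (odds ratio 0.55, adjusted p = 0.0191, Fisher's exact test). Both CRE differences also ended with centres within 100 bp. The other motifs searched passed in no comparison. Of the 1462 windows, 630 (43.1%) held none of the 23 motifs, against 42.3% at all-three sites.

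Among the 10201 NCoR peaks with SMRT, 14.3% lacked HDAC3 (95% interval 13.7 to 15.03%). The share was 20.2% among the 901 with an HNF6/CUX2 match (17.6 to 22.97%), 6.94% among the 461 with a RORE (4.80 to 9.66%) and 11.3% among the 3903 with the receptor half-site (10.3 to 12.4%). Where a RORE and an HNF6/CUX2 match fell in the same window, 3 of 35 peaks lacked HDAC3 (8.57%, 95% interval 1.80 to 23.1%), too few to place. The share also followed base composition: 21.5% lacked HDAC3 where GC was up to 42%, 13.0% between 42 and 50% and 10.4% above 50%.

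**Figure D3:**
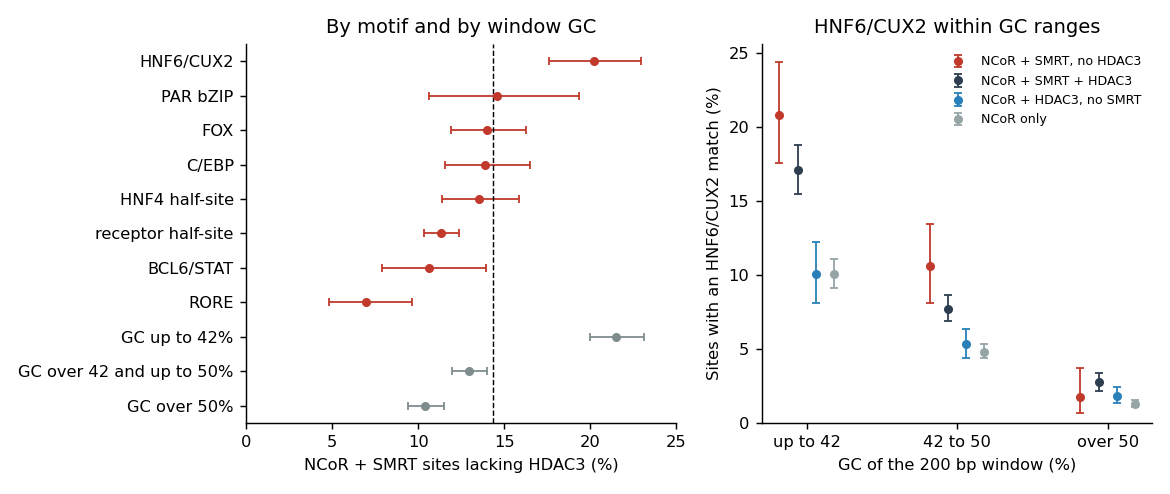
Left, share of NCoR and SMRT peaks that lack HDAC3 (horizontal axis, %) among peaks with each motif (red) and in 3 ranges of window GC (grey), with 95% exact binomial intervals and the 14.3% of all such peaks as a dashed line. Right, share of sites with an HNF6/CUX2 match (vertical axis, %) within the same GC ranges for the 4 classes; it falls from 20.8 to 1.72% with rising GC at sites without HDAC3.

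A search over all 2080 strings of 6 letters (counted with their reverse complement), chosen after the data were seen, compared these sites with all-three sites. More frequent at sites without HDAC3 were 154 strings, 7.4% of those tested, and less frequent were 124, or 5.96% (two-sided Fisher's exact test, adjusted p under 0.05). The 154 were rich in A and T, with a median of 5 of 6 letters, and the 124 had a median of 2 such letters. Of the 154, AAAAAT had the smallest p-value and is not part of the HNF6/CUX2 motif. TATTGA and ATCAAT, ranked 2 and 7, are part of it. GGGTCA and AGGTCA had the smallest p-values of all strings, with adjusted p = 2.32e-11 and 5.32e-09 in this family, followed by AGGGCA. Overlapping strings are not independent, and the GC difference between the classes, given above, moves with both groups. Its part in them was not tested.

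**Figure D4:**
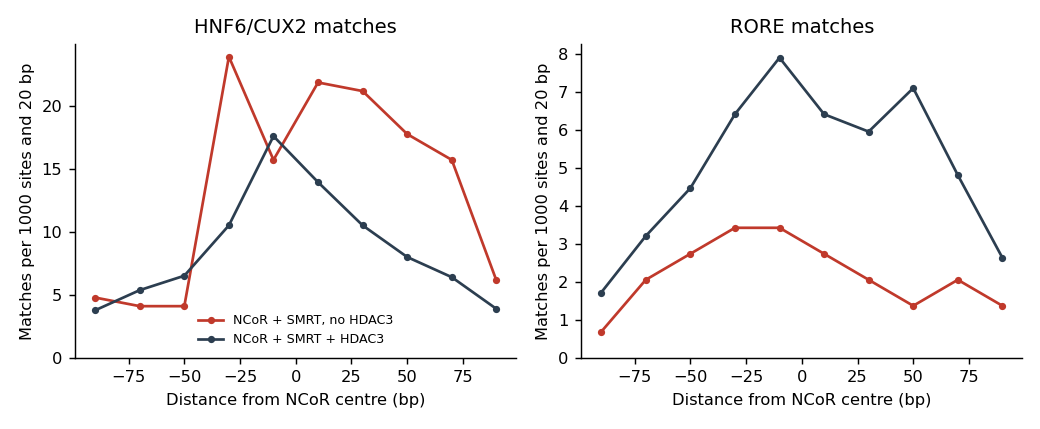
HNF6/CUX2 (left) and RORE (right) matches per 1000 sites in bins of 20 bp (vertical axes) by distance from the NCoR centre on the forward strand (horizontal axes), for sites without HDAC3 (red, 198 and 32 matches) and all-three sites (dark, 757 and 442 matches). Matches thin out towards 100 bp on either side, and the red curve is above the dark one for HNF6/CUX2 in 7 of 10 bins and below it for RORE in every bin.

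The sites were distal elements in the main. Of the 1462, 813 (55.6%) lay in introns, 467 (31.9%) between genes, 132 (9.03%) at promoters (1000 bp before to 100 bp after a transcript start), 14 in coding exons, 18 in UTRs and 18 in other exons. The promoter share was close to the 8.19% of all-three sites (odds ratio 1.11, 95% interval 0.92 to 1.35, adjusted p = 0.283, Fisher's exact test). It was below the 13.2% of NCoR and HDAC3 sites (odds ratio 0.65, adjusted p = 1.77e-05) and the 15.1% of NCoR-only sites (adjusted p = 8.54e-11, odds ratio 0.56). Windows with 10 or more CpG made up 4.51% of these sites and 3.55, 9.69 and 12.4% of the other classes in the same order.

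Outside promoters, fewer of the sites had a transcript start within 10 kb. A protein-coding start lay within 10 kb of 337 of 1330 such sites (25.3%), against 28.1% of all-three sites (odds ratio 0.87, adjusted p = 0.0372), 29.5% of NCoR and HDAC3 sites (odds ratio 0.81, adjusted p = 0.00448) and 30.9% of NCoR-only sites (adjusted p = 6.56e-05, odds ratio 0.76, Fisher's exact test). With a limit of 5 kb the first and the second no longer passed (adjusted p = 0.903 and 0.252). Over all sites, the median distance to the nearest protein-coding start was 25.1 kb, against 22.0, 17.6 and 16.3 kb. The centre fell in a repeat at 160 sites (10.9%), more often than the 8.57% of all-three sites (odds ratio 1.31, adjusted p = 0.0120) and not detectably more than the 9.54 and 9.89% of the other classes (adjusted p = 0.168 and 0.205).

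Within 10 kb, other peaks were found less often than around all-three sites and more often than around NCoR-only sites. A further NCoR peak, over 200 bp and up to 10 kb away, lay beside 952 sites (65.1%), against 71.0% of all-three sites (odds ratio 0.76, adjusted p = 9.66e-06) and 57.3% of NCoR-only sites (adjusted p = 1.21e-08, odds ratio 1.39). With a limit of 5 kb the first of these no longer passed (odds ratio 0.93, adjusted p = 0.175). HDAC3 peaks at that range, beyond the distance the choice used, lay beside 568 sites (38.9%), against 48.7% of all-three sites (odds ratio 0.67, adjusted p = 6.14e-12) and 30.9% of NCoR-only sites (adjusted p = 6.90e-10, odds ratio 1.42). SMRT peaks lay beside 458 sites (31.3%), against 40.6 and 24.2% (odds ratios 0.67 and 1.43, adjusted p = 2.92e-11 and 4.89e-09, Fisher's exact test). The HDAC3 and SMRT lists also defined the classes. Comparisons of HDAC3 and SMRT neighbours are therefore not independent of the choice and are given as descriptions. Against the NCoR and HDAC3 sites, at 64.2, 39.3 and 32.3%, no difference passed at 10 kb (adjusted p = 0.557, 0.785 and 0.506, Fisher's exact test). Other limits changed this. The NCoR neighbour odds ratio passed at 5 kb (1.14, adjusted p = 0.0382) and, turned round, at 20 kb (0.86, adjusted p = 0.0346, Fisher's exact test). That of HDAC3 neighbours passed at 20 kb (0.87, adjusted p = 0.0218). An all-three site lay within 10 kb of 388 sites (26.5%), and another site of the same kind within 10 kb of 74 (5.06%).

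Every autosome carried such sites, and they made up between 11.3% (chromosome 9) and 17.5% (chromosome 16) of the NCoR peaks with SMRT. On the X chromosome 23 of 106 lacked HDAC3 (21.7%, 95% interval 14.3 to 30.8%), against 1439 of 10095 elsewhere (14.3%). The odds ratio was 1.67 (p = 0.0360, two-sided Fisher's exact test), but the difference ended with a centre limit of 100 bp (p = 0.0950) or 400 bp (p = 0.0505).

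The sites spread over many genes. Assigned to the nearest start of a protein-coding transcript, they belonged to 1281 of 21924 protein-coding genes (5.84%), of which 812 were also nearest to an all-three site and 469 were not. Only 1 site fell to 1124 of the genes, 2 to 137, 3 to 16 and 4 to Ahcy, Alcam, Ext1 and Pik3r1. At Ahcy, the hydrolase that removes S-adenosylhomocysteine, the 4 sites stood beside 1 all-three site. A site lay 108 bp before its start and held an HNF4 half-site, another lay 1.02 kb after the start, and the remaining pair lay 15.2 and 18.1 kb after it. Pik3r1, the regulatory subunit of phosphoinositide 3-kinase, carried 17 all-three sites beside its 4. Ext1, a heparan sulphate polymerase, carried 5 and Alcam, a cell adhesion molecule, 2. Abcb4, the canalicular phospholipid transporter, was the first in alphabetical order among the genes with 3 and had 3 all-three sites as well.

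Among genes for fasting metabolism, sites without HDAC3 were fewer than all-three sites, as over all genes. The list was taken from genes that the study itself names, some of them for binding seen in its ChIP-seq, so it is not independent evidence. Of the 27 genes named by the study, 6 were nearest to a site without HDAC3 (Acot4, Angptl4, Bcl6, Ehhadh, Hadh and Idh2), whereas 23 were nearest to an all-three site. The shares were 22.2 and 85.2%, against 5.84 and 20.9% of all protein-coding genes. The 62 SMRT-bearing sites of the list comprised 7 without HDAC3, or 11.3% (95% interval 4.66 to 21.9%), near the 14.3% of all such peaks. At Angptl4, the fasting-induced inhibitor of lipoprotein lipase, the site lay 8.15 kb after the start, just past the end of the gene, with HDAC3 5.72 kb away. At Ehhadh it lay in an intron 6.31 kb after the start with HDAC3 only 597 bp away, and at Hadh 7.37 kb before the start with HDAC3 3.96 kb away. Bcl6 had 2 sites, 89.4 and 90.0 kb before its start, with HDAC3 8.65 and 9.27 kb away. Of 23 genes for fatty acid oxidation 6 had a site, among them Hadha, of the trifunctional protein, with its site 2.999 kb after the start. For Decr1, the 2,4-dienoyl-CoA reductase, HDAC3 was 498 bp from the site.

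The other metabolic lists are given by their counts, to be read beside the 5.84% of all genes and the 14.3% of all SMRT-bearing sites. Of 23 genes for lipogenesis 7 had a site, with 15.3% of the 59 SMRT-bearing sites of the list lacking HDAC3. Fads1, a fatty acid desaturase, and Lpin2, a phosphatidate phosphatase, had 2 each, and the site of Acacb, the acetyl-CoA carboxylase of the outer mitochondrial membrane, lay 7.12 kb before the start. Of 24 genes for glucose and insulin 9 had a site (14.3% of 98). The pair at Tat, tyrosine aminotransferase, lay 3.89 and 11.8 kb before the start, the farther one with an HNF6/CUX2 match and HDAC3 912 bp away. The site of Slc2a2, the hepatic glucose transporter GLUT2, lay 24.9 kb after the start and also held an HNF6/CUX2 match. Foxo3 had 2 sites. Of 22 genes for bile acids and cholesterol 6 had a site (15.5% of 58), including 3 at Abcb4, 2 at Slco1b2, a bile acid uptake transporter, and 1 with FOX and HNF6/CUX2 matches 77.1 kb into Cyp7b1, an oxysterol hydroxylase. Of 18 genes for xenobiotic metabolism 5 had a site (12.8% of 47). The site of Cyp2e1 lay at the promoter, 109 bp before the start, and Cyp3a11 had 2.

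Among 19 liver transcription factors 8 had a site, or 5 with the nearest gene limited to 100 kb, and 15.7% of 83 SMRT-bearing sites lacked HDAC3, against 14.3% of all such peaks. The counts of genes in this paragraph are also read beside the 5.84% of all protein-coding genes. Tcf7l2, the Wnt-responsive factor, had 3, and Foxa2, Nfia and Onecut2 had 2 each. A Foxa2 site held HNF6/CUX2 and GATA matches 322 kb from the gene, and an Onecut2 site held FOX and HNF6/CUX2 matches in an intron 9.24 kb after the start. Hnf4a had 1 site, in an intron 8.35 kb after the start, with HDAC3 3.78 kb away. Of 36 nuclear receptor genes 9 had a site, or 5 within 100 kb, and 10.8% of 93 SMRT-bearing sites lacked HDAC3. Ppara, the fasting regulator, had 2 sites, and the site of Pparg, with HNF6/CUX2 and NF-Y matches, lay 2.94 kb upstream of a start. Of 19 clock genes 6 had a site (15.9% of 44). Per2 had 2 in an intron, 2.67 and 3.34 kb after a start, with HDAC3 35.8 and 35.2 kb away. Among the 13 genes of growth hormone and STAT signalling 5 had a site (19.5% of 41), with 2 each at Ghr, Bcl6 and Igfbp3 (482 and 552 kb from the gene) and 1 each at Igf1 and Socs3. Of the 6 corepressor complex genes, Tbl1xr1 alone was nearest to a site, 585 kb away.

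Hepatocyte marker genes had the highest share of SMRT-bearing sites without HDAC3 among lists with over 20 such sites. It was 10 of 39, or 25.6%, but the interval from 13.0 to 42.1% spans the 14.3% of all such peaks. Of 19 genes 8 (42.1%) had a site and 14 (73.7%) an all-three site, against 5.84 and 20.9% of all protein-coding genes. At promoters, 5 SMRT-bearing sites of these genes lacked HDAC3 and 3 had it, too few to set against other promoters, and no test was made. The 5 lay within 158 bp of a start, at Ahsg (fetuin-A, 2 bp before it), Fgb (a fibrinogen chain, 59 bp), Apob (the main protein of very low density lipoprotein, 97 bp), Apoc3 (an apolipoprotein that slows triglyceride clearance, 113 bp) and Cps1 (the entry enzyme of the urea cycle, 158 bp). HDAC3 lay 656 bp away at Ahsg and between 6.13 and 27.2 kb away at the other 4. Over all genes, 132 of 848 promoter peaks with SMRT lacked HDAC3 (15.6%, 95% interval 13.2 to 18.2%), against 14.3% of all such peaks.

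Marker genes of other liver cell types are read against the 5.84% of all protein-coding genes, from which counts this small cannot be told apart. Of 11 Kupffer cell markers and 8 stellate cell markers none was nearest to a site without HDAC3, and the same held for 18 ribosomal protein genes. All-three sites were few there too, being nearest to 0, 1 and 3 genes of these lists. Fcgr2b was the only 1 of 10 endothelial markers with a site and Sox9 the only 1 of 6 cholangiocyte markers. Of 17 inflammatory genes 3 had a site (Ccl2, Il1r1 with 2, and Tnfaip3), and 4 of 14 SMRT-bearing sites lacked HDAC3. A nearest gene is not shown to be regulated by the site, and since genes surrounded by many peaks had more chances to be nearest to one, no test was made of these lists.

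**Figure D5:**
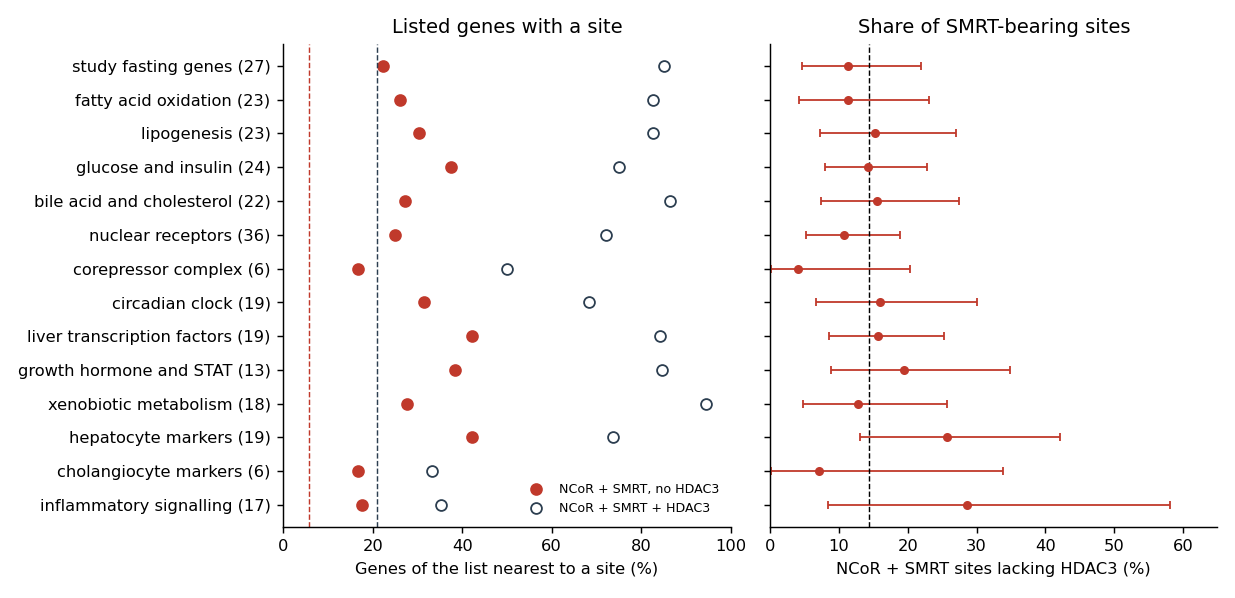
Left, share of the genes of each list drawn (number of genes in brackets) that were nearest to a site without HDAC3 (red) or to an all-three site (open circles), with dashed lines at the 5.84 and 20.9% of all protein-coding genes. Lists with fewer than 14 SMRT-bearing sites are not drawn. Right, share of NCoR and SMRT sites at these genes that lack HDAC3 with 95% exact binomial intervals and a dashed line at 14.3%; every interval shown crosses the line.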

How the data were processed

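The deposited lists of NCoR, SMRT and HDAC3 peaks hold positions on mm10 only, 1 list per cofactor, from 3 livers of Bcl6 fl/fl mice. The authors aligned uniquely mapped reads with Bowtie, called peaks with HOMER on pooled replicates against input and kept those enriched by DESeq2. Coordinates were read as 1-based and inclusive. The sites and gene lists were chosen with earlier results of these data known. Genes came from GENCODE on GRCm38. Motifs were searched on both strands in 200 bp windows. Besides those spelled in the report, C/EBP was searched as TTATGCAA with G also allowed at the third letter and C at the fourth, ETS/ELK as CCGGAAGT, CRE as TGACGTCA and ERR as TCAAGGTCA with G also allowed at the second. The E-box was searched as CACGTG in its palindromic form. AP-1 matches were read from the string TGACTCA with G also allowed at the fourth letter. For the GATA family of factors the string was AGATAAG with T also allowed at the first letter. The TEAD family, which answers to Hippo signalling, was searched as CATTCCA throughout. The CCAAT-binding factor NF-Y was searched as CCAATCA throughout. RORE, DR1, DR4, IR1, GRE, NF1, HNF1 and CTCF are given by name. Half-sites overlap RORE, ERR, DR and IR elements. RORE held 4.86%, HNF4 half-site 7.85%, FOX 7.74%, C/EBP 5.51%, AP-1 5.74%, GATA 6.16%, BCL6/STAT 3.84%, PAR bZIP 1.74% and SP/KLF 5.97% of all NCoR peaks. Classes were compared by two-sided Fisher's exact tests (SciPy 1.17.1) with Benjamini-Hochberg adjustment at 0.05, over 3 classes or over all 69 motif tests, after a test on simulated data. Named genes were those of the study with a site, the 5 with most sites, and up to 3 per list with most sites. Others were named after their values were seen. Mantel-Haenszel tests (statsmodels 0.14.6), the receptor half-site and the 6-letter strings were added after seeing the data. A gene and a sequence that these rules would name are not reported here.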

Additional observations from a re-analysis of the deposited data

How the results depend on the processing

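No paired analysis was possible because the libraries of a cofactor were merged into a pooled list, and for the same reason no library could be left out. Depth, peak height and spread between animals are unknown. GC strata, SMRT-centred windows, 1 peak per class and 10 kb group, autosomes, and neighbours of non-promoter sites were alternatives chosen after seeing the data. Of 146 alternative values for the comparisons, 115 kept direction and side of the threshold or, for counts of motifs, stayed near the main count. Among the latter, less frequent motifs fell from 3 to 2 against NCoR and HDAC3 sites (centres within 100 bp, no HDAC3 within 1000 bp) and from 5 to 4 against NCoR-only sites (repeat-masked windows, centres within 100 bp). Those 146 values took in the 23 motifs only as numbers of motifs, so they do not cover the odds ratios of single motifs. These odds ratios and the gene lists had 202 further alternative values. Of the 202, 160 left the reading unchanged and 36 were odds ratios that no longer passed. A further 3 odds ratios turned round, and 3 counts of genes moved. The cause of these changes and of those that follow was not tested. Against all-three sites, the odds ratio of a protein-coding start within 10 kb no longer passed with centres within 100 bp (0.88), without HDAC3 within 1000 bp (0.88) or at 5 kb (0.99), and at 5 kb against NCoR and HDAC3 sites (0.89). At 5 kb the NCoR neighbour odds ratio against all-three sites no longer passed (0.93). Against NCoR and HDAC3 sites the NCoR neighbour odds ratio was 1.14 at 5 kb, where it passed. It turned to 0.86 at 20 kb, where it also passed, and to 0.97 outside promoters, where it did not. The odds ratio of HDAC3 neighbours turned to 1.09 at 5 kb without passing and passed at 20 kb (0.87). The X chromosome odds ratio was 1.54 at 100 bp and 1.65 at 400 bp and passed at neither. Against all-three sites, 0 motifs in place of 1 were more frequent within GC strata, and 1 in place of 2 (IR1 lost) was less frequent within GC strata, 100 bp windows, repeat-masked windows, SMRT-centred windows, non-promoter sites, autosomes and sites without HDAC3 within 1000 bp. Against NCoR and HDAC3 sites, 1 was more frequent within GC strata and in 100 bp windows, and 1 was less frequent there and outside promoters. Against NCoR-only sites, 2 were more frequent within GC strata, and the less frequent fell from 5 to 1 within GC strata, 2 in 100 bp windows and outside promoters, and 3 without HDAC3 within 1000 bp or with 1 peak per class and 10 kb group. Odds ratios turned for SP/KLF against NCoR and HDAC3 sites (1.15, GC strata) and, against all-three sites, for the HNF4 half-site (1.05, 100 bp windows) and FOX (1.02, non-promoter sites). With nearest genes limited to 100 kb, 5 nuclear receptor genes, 5 liver transcription factors and 0 corepressor genes had a site.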
